A study of Mus musculus with 13 samples.

Results

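Respiratory complex I was followed through 45 of the 14518 gene entries measured in sorted mouse microglia: the genes whose symbols begin with Nduf, and the assembly factor gene Tmem126b. Tmem126b, Ndufa3 and Ndufc2 had been given in an earlier account of these data. Members were taken by symbol, with Tmem126b added to the Nduf pattern, and symbols of pseudogenes ending in -ps were left out. By role they were 7 catalytic core subunits of the peripheral arm, 9 accessory subunits of that arm, 9 of the proximal membrane arm, 11 of the distal membrane arm, 8 assembly factors and Ndufa4, whose protein is now placed with complex IV. Subunits encoded by the mitochondrial genome were not analysed here.

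Complex I is the entry point of the mitochondrial respiratory chain. Its peripheral arm takes electrons from NADH through a flavin and a chain of iron-sulfur clusters to ubiquinone, and its membrane arm pumps protons into the intermembrane space. Accessory subunits surround the core without carrying out the reaction, and assembly factors hold intermediates together and leave before the complex is complete. In macrophages, microglia among them, the balance between respiration and glycolysis is known to shift with activation, and complex I is a site where reactive oxygen species form.

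The cells were microglia, the resident macrophages of the brain, enriched on Percoll and sorted for CD11b and an intermediate level of CD45. They came from C57BL/6 mice aged 2 months and carrying no engineered allele named in the labels. The group RSD (7 libraries: 2, 7, 8, 10, 11, 12 and 13) came from animals put through repeated social defeat for 6 cycles, meaning that a mouse meets an aggressor again and again. CON (6 libraries: 1, 4, 5, 17, 18 and 19) were controls. The cells were collected for RNA 24 days after the final defeat cycle, so the comparison asks which transcripts still differed at that time. Sorting on 2 surface proteins also admits other CD11b-positive cells with intermediate CD45, and the labels do not say whether any library pooled animals. In sorted bulk RNA, a lower value can mean fewer cells of a type or less of the transcript in each cell, and these cannot be told apart.

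Regulatory sequence was looked at first, since nuclear genes for the respiratory chain are known to share promoter sites for the factors NRF1, GABPA and YY1. RefSeq promoter windows (GRCm38.p6, 250 bases before to 50 after the gene start) were at hand for 40 of the 45 members. A gene was counted once if any of its windows held a motif on either strand. The letters AAGATGGCG, of the YY1 motif, were found in 6 of these members (15%). The background was 1.64% of all 27025 genes with a window and 3.68% of the 9277 tested genes with one. The NRF1 motif, spelled GCGC, any base and TGCGC, was found in 9 members (22.5%), against 5.19% of all genes and 11.9% of tested genes. The letters CCGGAAG, of the GABPA motif, were found in 5 members (12.5%), against 9.93% and 20.5%. In Ndufs6, which held 2 of the motifs, the matches did not overlap. A match is a description of the letters, not a site shown to be bound.

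The 6 YY1 matches are printed because they include Tmem126b and Ndufs7, which were under an unadjusted p of 0.05 in opposite directions in the comparison of groups. Each line gives 30 bases 5′ to 3′ on the strand of the gene, with the motif in capitals.
Tmem126b: gtgaggcgctAAGATGGCGgcgtcccagcg
Ndufs7: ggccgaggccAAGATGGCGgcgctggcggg
Ndufs6: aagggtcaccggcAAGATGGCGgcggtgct
Ndufs4: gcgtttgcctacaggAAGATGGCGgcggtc
Ndufa9: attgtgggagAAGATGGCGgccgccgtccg
Ndufc1: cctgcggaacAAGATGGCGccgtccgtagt
These stood in GRCm38.p6 at chr7:90475959-90475988 (minus strand), chr10:80249463-80249492 (plus), chr13:73328433-73328462 (minus), chr13:114388045-114388074 (minus), chr6:126849096-126849125 (minus) and chr3:51408914-51408943 (minus), in the order of the lines. All 6 matches lay downstream of the gene start, between base 18 and base 36 after it, and in the same orientation. The letters hold an ATG, and whether they were part of the coding sequence was not checked.

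Of the NRF1 matches, 3 are printed as examples: Ndufs6, which alone held both motifs, the accessory subunit gene Ndufa6 and the assembly factor gene Ndufaf4.
Ndufs6: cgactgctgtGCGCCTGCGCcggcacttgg
Ndufa6: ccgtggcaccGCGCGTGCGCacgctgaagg
Ndufaf4: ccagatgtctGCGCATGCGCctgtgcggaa
They stood at chr13:73328479-73328508 (minus strand), chr15:82354249-82354278 (minus) and chr4:24897960-24897989 (plus). Genes that shared a motif lay on both sides of the comparison of groups: of the YY1 genes 2 had a higher and 4 a lower mean in RSD, and of the 8 NRF1 genes that were tested 3 were higher and 5 lower.

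Depth was 9.76 to 12.3 M reads per library, recovered as whole numbers from the normalized values. The 8 microglial markers, P2ry12 and Tmem119 among them, were present in every library, with a summed level of 275739 to 293486 normalized reads in RSD and 281641 to 295382 in CON without CON 18, which held 180295. CON 18 stood apart from its group. The 6 markers of border-associated macrophages in the table (of 8 listed; Lyve1 and Cd209f were not analysed here) summed to 14730 there, against 186 to 329 in the other controls and 290 to 444 in RSD, with Pf4 and Cbr2 at 0 in at least 1 library. The 6 neutrophil markers analysed (of 7) summed to 21.1 to 1185 in RSD and 11.6 to 736 in CON. Neuronal markers (5 of 6) summed to 26.7 to 66.5 and 22.2 to 88.6, and oligodendrocyte markers (5 of 6) to 629 to 927 and 861 to 996. Astrocyte markers (4 of 6) summed to 1277 to 1632 and 500.3 to 1628, and endothelial markers (3 of 6) to 336 to 473 and 96.9 to 496. The 500.3 and 96.9 were those of CON 18, and without it the lowest controls held 1264 and 405. Outside CON 18 these 2 sums were mostly Slc1a3 (1128 to 1473) and Pecam1 (309 to 461). In CON 18 these genes were at 361 and 43.9, while Slc1a2 (87.9) and Flt1 (27.0) were highest of all there. The 2 sums are therefore no measure of either cell type. RSD 8 stood apart in another way, described with the members below. Values without CON 18 or RSD 8 are given beside genes whose difference they moved.

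All 45 members were detected, and 44 had at least 10 reads in every library. Together they took 0.0537% to 0.0654% of a library's reads. Per kb of the principal transcript, their median level was 134 normalized reads, against 101 for all genes tested that had a length. Their transcripts were short, with a median of 1005 bases against 2906, so most members rested on few reads: 34 of 45 averaged under 200 normalized reads. GC content was like that of other genes, with a median of 49.4% against 49.5%.

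**Figure D1:**
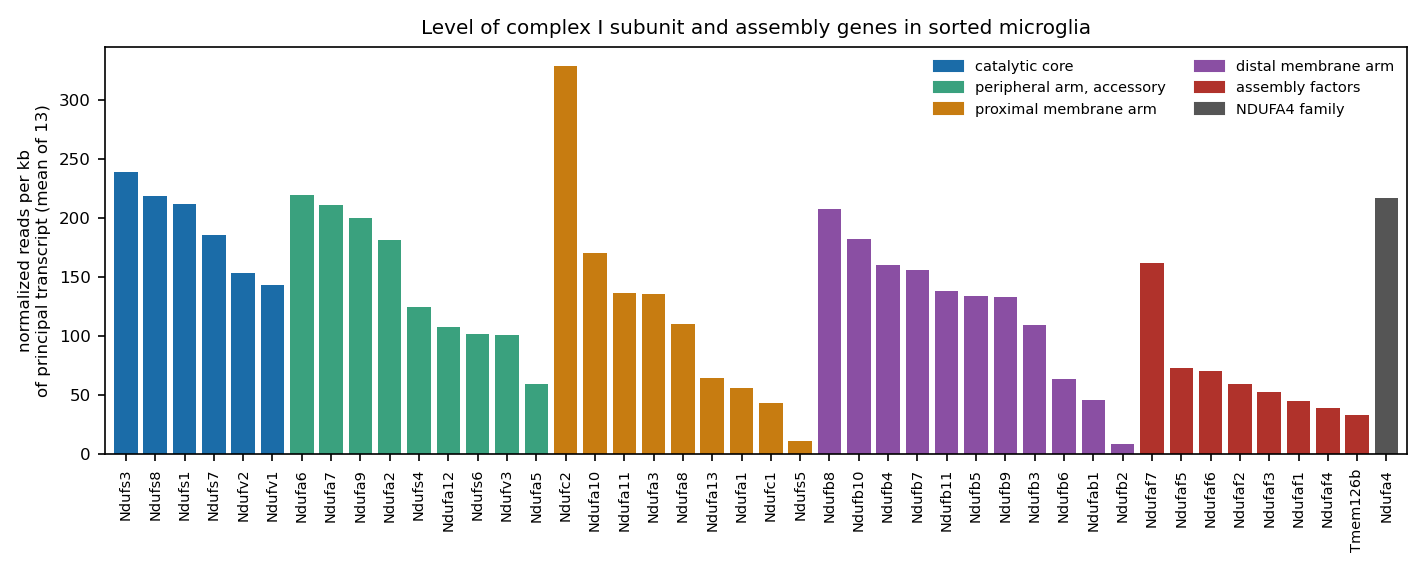
Mean level of each gene reported here over the 13 libraries, in normalized reads per kb of the principal transcript, in bars coloured by role and sorted within it. Ndufc2 and Ndufs3 are the tallest bars drawn, and all assembly factors except Ndufaf7 stand below 100.

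The highest level per kb was that of Ndufc2, a proximal membrane subunit, at 328 normalized reads. Ndufs3, a core subunit without a cofactor, stood at 239, and the other core genes reported here lay between 143 and 218. Assembly factor genes were lower, with 7 of 8 between 33.2 (Tmem126b) and 72.7 (Ndufaf5), and Ndufaf7, a methyltransferase, at 162. The order of single genes depended on the transcript length used: Ndufb2 was lowest at 8.82 per kb with an annotated principal transcript of 4371 bases. By the union of exons Ndufc2 (297) was again highest, Ndufa2 stood at 181, and the 3 lowest were Ndufb2 (6.85), Ndufs5 (8.76) and Ndufaf2 (13.5).

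Ndufs5, a small subunit on the intermembrane face, was the single member that failed the filter on low values. It was listed at 0 to 14.3 normalized reads in RSD (median 8.89) and at 0 to 11.7 in CON (median 8.95). The ranges overlapped, and RSD 8 and CON 18 were the libraries at 0. With no filter on low values its log2 difference was 0.02 ± 0.66 (limma adjusted p = 0.994), an error too wide to bound a change. A processed pseudogene, BC002163, matches its transcript at 99.4% over 319 bases, and how reads that fit both were counted is not given in the sources used here. In all, 9 members had such a copy elsewhere in the transcriptome (at least 95% identity over 150 bases) and 18 shared exon bases with a neighbouring gene, 16 of them with a gene on the opposite strand. The remaining 22 had neither.

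None of the members passed an adjusted p of 0.05 between RSD and CON in limma. The background was 0 of 12496 genes (0%), and no gene had an adjusted p below 0.821. An unadjusted p under 0.05 was reached by 5 of 44 members, 1 higher in RSD (Tmem126b) and 4 lower (Ndufa3, Ndufc2, Ndufs7 and Ndufaf3). The background at that threshold was 4.00% of genes (2.02% higher and 1.98% lower). Tmem126b, Ndufa3 and Ndufc2 were known from an earlier account of these data, so the count is a description and not a test. edgeR called 0 members, with 4 under an unadjusted 0.05 (background 4.81%), and DESeq2 called 0 (background 0.0160%), with 5 (background 4.62%). The count of 5 was 2 without CON 18 (background 4.95%) or RSD 2 (2.58%). It was 3 without CON 4 (2.78%), CON 5 (3.02%), RSD 7 (4.03%) or RSD 10 (3.84%), and 3 without both CON 18 and RSD 8 (4.89%). The values of all 45 members overlapped between the groups, where 8 of 12496 genes (0.0640%) did not overlap. The precision was enough to bound most differences: for 34 of 44 members the 95% interval lay within a 1.5-fold change either way, and for all 44 within a 2-fold change.

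Small differences leaned to one side. Mean levels were lower in RSD for 32 of 44 members (72.7%), against 48.6% of all genes tested, and the median log2 difference was -0.07 against 0.01, beside a median standard error of 0.14 for a single member. With 1 library left out in turn the count ran from 27 (without RSD 13) to 34 (without RSD 8). Within sample numbers 1 to 8, and within 10 to 19, it was 26 (59.1%), against 51.0% and 48.8% of all genes. It was 28 in 1 to 8 without RSD 8 (63.6%, against 50.5%), and 24 in 10 to 19 without CON 18 (54.5%, against 50.4%). By role, 29 of 35 tested subunits had a lower mean (median -0.09), and 5 of 8 assembly factors had a higher one (median 0.04). The direction of the assembly factors rested on RSD 8: without it 3 of 8 were higher (median -0.02), and without both CON 18 and RSD 8 2 of 8 (median -0.04), while subunits were lower in 29 and 31 of 35. These are counts over genes measured in the same libraries, so they hold no more independent samples than the 13 libraries. Among the 22 members with neither a copy nor shared exon bases, 16 were lower (median -0.08).

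**Figure D2:**
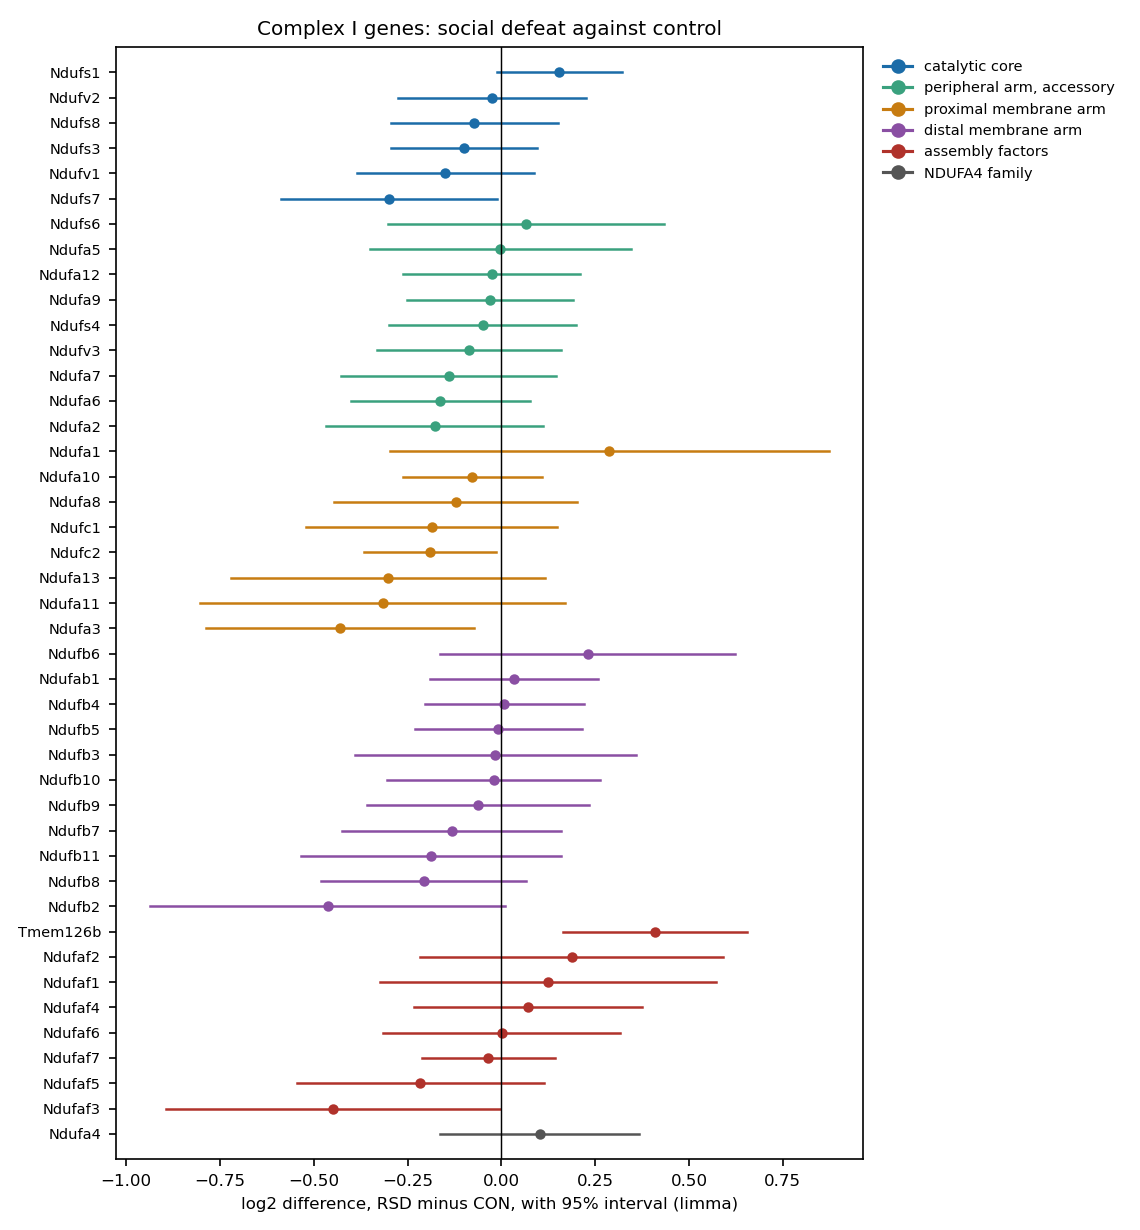
Log2 difference of RSD minus CON with its 95% interval (limma, 7 against 6 libraries) for the tested genes reported here, grouped by role and sorted within it. Intervals of 5 genes exclude 0: Tmem126b on the higher side, and Ndufs7, Ndufc2, Ndufa3 and Ndufaf3 on the lower side.

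In the catalytic core, 6 of 7 genes had a lower mean in RSD (median -0.10), and 1, Ndufs7, was under an unadjusted p of 0.05. Ndufs7 carries the last iron-sulfur cluster before ubiquinone (chromosome 10, 80249121 to 80256794). It ran from 110 to 211 normalized reads in RSD (median 162) and from 161 to 239 in CON (median 204). The ranges overlapped, and RSD 8 was the lowest library. Its log2 difference was -0.30 ± 0.14 (SE; limma adjusted p = 0.821), and -0.20 without RSD 8, where it was no longer under an unadjusted 0.05. After removing each library's trend on GC content and length it was -0.18, again not under an unadjusted 0.05.

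Ndufs1, the largest core subunit, went the other way (chromosome 1, 63143596 to 63176833). It stood at 539 to 703 in RSD (median 583) and 455 to 585 in CON (median 538). RSD 8 was the highest and CON 18 the lowest, and the other libraries lay close together. The log2 difference was 0.15 ± 0.08 (limma adjusted p = 0.821), and 0.07 without those libraries. Ndufs3 ran from 214 to 260 in RSD (median 243) and from 209 to 287 in CON (median 267), a difference of -0.10 ± 0.09, and -0.16 without CON 18. Its RSD range lay inside that of CON. A processed pseudogene, Gm12251, matches the Ndufs3 transcript at 98.6% over 792 bases. On the other strand, Ndufs3 exons share 88 bases with Kbtbd4, and Ndufs1 exons share 489 bases with Ino80dos.

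Of the accessory subunits of the peripheral arm, 8 of 9 had a lower mean in RSD, with a median of -0.05, and none was under an unadjusted p of 0.05. Ndufa2, a subunit with a thioredoxin-like fold, stood at 81.9 to 115 in RSD (median 95.6) and 75.0 to 136 in CON (median 114), a log2 difference of -0.18 ± 0.14. Ndufa6, which anchors an acyl carrier protein to the arm, stood at 93.4 to 144 (median 125) and 121 to 152 (median 135), a difference of -0.16 ± 0.11. Both pairs of ranges overlapped, and both genes had a limma adjusted p of 0.821. Ndufs4, a late-joining subunit whose loss in mice gives an encephalopathy, was at -0.05 (-0.09 without RSD 8), and Ndufs6 was the member with a higher mean (0.07, and 0.02 without RSD 8).

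The proximal membrane arm had the lowest median, -0.19, with 7 of 8 tested genes lower in RSD and 2, Ndufa3 and Ndufc2, under an unadjusted p of 0.05. Ndufa3, a small membrane-spanning subunit (chromosome 7, 3617373 to 3620327), ran from 46.8 to 81.4 in RSD (median 59.2) and from 60.3 to 113 in CON (median 77.4). RSD 7, RSD 11 and RSD 12 lay inside the control range, CON 4 was the lowest control, and CON 18 was the highest of all 13. The log2 difference was -0.43 ± 0.17 (limma adjusted p = 0.821), and -0.33 without CON 18, where it was no longer under an unadjusted 0.05. Its exons share 4 bases with Tfpt on the other strand.

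Ndufc2 (chromosome 7, 97400003 to 97407802) had narrow ranges. Its RSD libraries lay within 201 to 230 (median 208), and those of CON within 203 to 271 (median 241). Only CON 17 fell among the RSD values, while the other controls all lay above every RSD library. The log2 difference was -0.19 ± 0.08 (limma adjusted p = 0.821), and -0.18 without CON 18, where it was no longer under an unadjusted 0.05. Like Tmem126b and Ndufs7, it shares no exon bases with another gene and has no close copy. Ndufa1 was the gene of this arm with a higher mean, at 16.6 to 47.6 in RSD and 9.61 to 27.0 in CON; RSD 2 was far above the rest, and the difference of 0.29 ± 0.28 was about the size of its error.

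In the distal membrane arm 8 of 11 genes had a lower mean, the median was -0.02, and none was under an unadjusted p of 0.05. Ndufb2 had the largest log2 difference of any member on the lower side, at -0.46 ± 0.22 (limma adjusted p = 0.821). It stood at 20.01 to 51.1 in RSD (median 34.9) and 38.4 to 60.2 in CON (median 42.2). RSD 10 and RSD 13 were lowest, RSD 8 was the highest of its group, and CON 1 the highest of all. Without RSD 8 the difference was -0.58 and under an unadjusted p of 0.05. Its exons share bases with Braf and an antisense gene on the other strand and with Gm42420 on its own, so these reads are uncertain. Ndufb8 stood at 86.2 to 157 in RSD (median 136) and 135 to 179 in CON (median 149), a difference of -0.21 ± 0.13. RSD 8 lay far below the controls, and without it the difference was -0.11. Exons of Ndufb8 share 134 bases with Gm20538 on the same strand.

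Among the assembly factors, Tmem126b had the smallest p of all members (chromosome 7, 90467438 to 90476001). The protein is part of the mitochondrial complex I assembly complex, which builds the proximal membrane arm. Its transcript ran from 73.4 to 99.8 normalized reads in RSD (median 86.2) and from 58.6 to 75.5 in CON (median 61.4). The groups overlapped through CON 1 alone, which lay above RSD 13, and the other controls all lay below every RSD library. Means were 84.8 ± 8.91 (SD, n = 7) and 63.5 ± 6.16 (SD, n = 6), a log2 difference of 0.41 ± 0.12 (limma adjusted p = 0.821). It was 0.40 without CON 18 and RSD 8, and 0.32 after removing each library's trend on GC content and length.

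The other genes of that assembly complex did not share this difference in size. They are named as its partners, outside the rule for naming genes. Ndufaf1 was at 37.8 to 113 in RSD and 48.5 to 69.2 in CON, a log2 difference of 0.12 ± 0.21, with RSD 8 highest and RSD 13 lowest. Without RSD 8 it was at -0.0047, and without both CON 18 and RSD 8 at -0.07. Ecsit was at -0.09 ± 0.18, Acad9 at 0.00 ± 0.09, Timmdc1 at 0.09 ± 0.12 and Tmem186 at -0.10 ± 0.11. Tmem126a, the neighbouring paralog, was at 0.08 ± 0.18. Without CON 18 and RSD 8, Ecsit was at 0.07, Acad9 at 0.08, Timmdc1 at 0.02, Tmem186 at -0.06 and Tmem126a at -0.0075. None of these 6 had an unadjusted p under 0.05, and whether Tmem126b differed more than they did was not tested.

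Ndufaf3, which acts early with Ndufaf4 where the peripheral arm meets the membrane, was the other assembly factor under an unadjusted 0.05 (chromosome 9, 108565537 to 108567434). It stood at 29.8 to 85.5 in RSD (median 70.7) and 75.0 to 126 in CON (median 85.3). RSD 8 lay far below its group and CON 18 far above its own, and the other libraries overlapped. The log2 difference of -0.45 ± 0.21 (limma adjusted p = 0.821) became -0.17 without both, no longer under an unadjusted 0.05. Exons of Ndufaf3 share 48 bases with Impdh2 on the other strand. Ndufaf4 itself was at 112 to 221 in RSD and 114 to 147 in CON, a difference of 0.07 ± 0.14. RSD 8 was again the farthest library, and without it the difference turned to -0.03. Ndufa4, now counted with complex IV, stood at 109 to 157 in RSD (median 137) and 94.7 to 161 in CON (median 128), a difference of 0.10 ± 0.13 (limma adjusted p = 0.847), with the RSD range inside that of CON. Without CON 18 it was 0.02, and with the trend on GC content and length removed 0.0019.

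**Figure D3:**
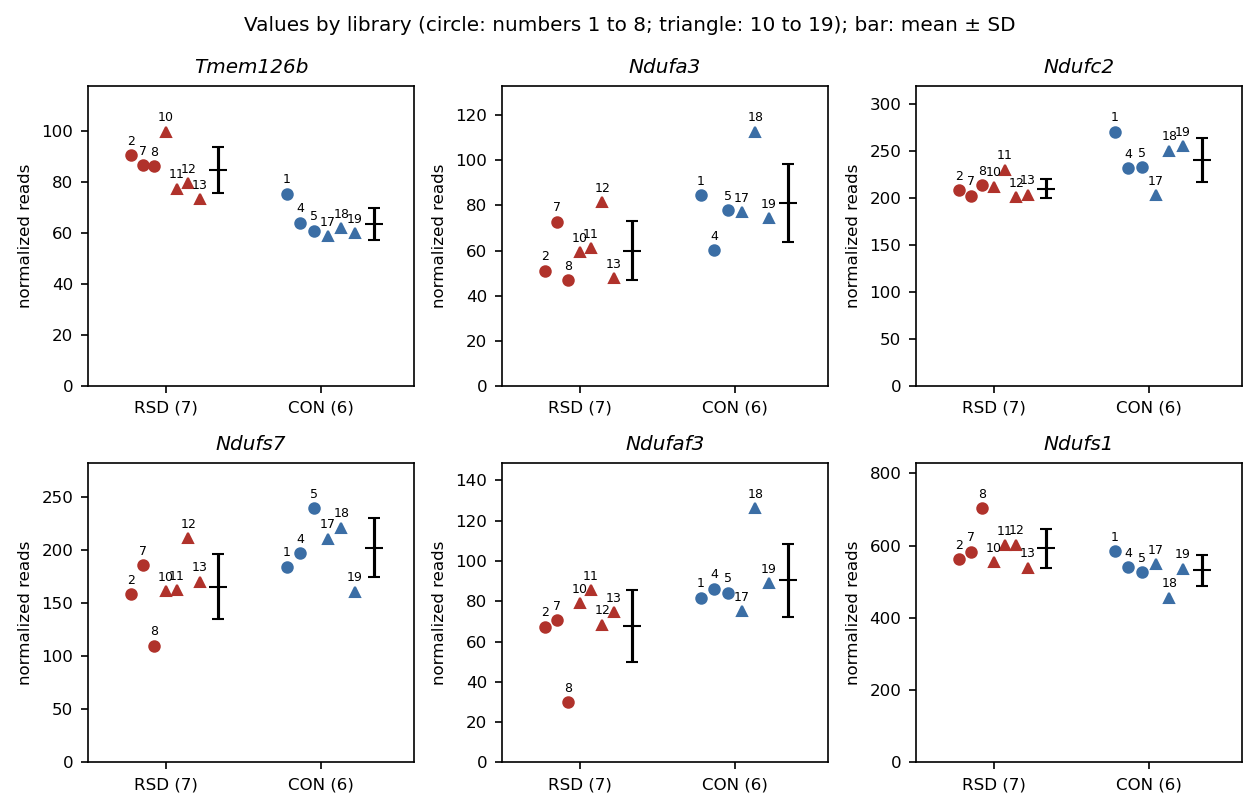
Normalized reads of 6 genes in each of the 13 libraries, labelled with the sample number, with the group mean and SD as bars; circles are numbers 1 to 8 and triangles 10 to 19. Tmem126b overlaps between groups only through CON 1, Ndufc2 only through CON 17, and in Ndufaf3 and Ndufs1 RSD 8 lies apart from its group.

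Across libraries, 2 controls held the highest levels of these genes. CON 1 was above a gene's own mean in 36 of 44 members and CON 5 in 34, with median log2 deviations of 0.14 and 0.13. CON 4 was above in 25, and CON 17, CON 18 and CON 19 in 21 each, with medians of 0.02, -0.01, -0.02 and -0.01. In RSD the count above the mean ran from 10 (RSD 13, median -0.10) to 29 (RSD 7, median 0.05). Averaged over libraries the median deviation was -0.01 ± 0.05 in RSD (SD, n = 7) and 0.04 ± 0.07 in CON (SD, n = 6), a gap within the spread between libraries.

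**Figure D4:**
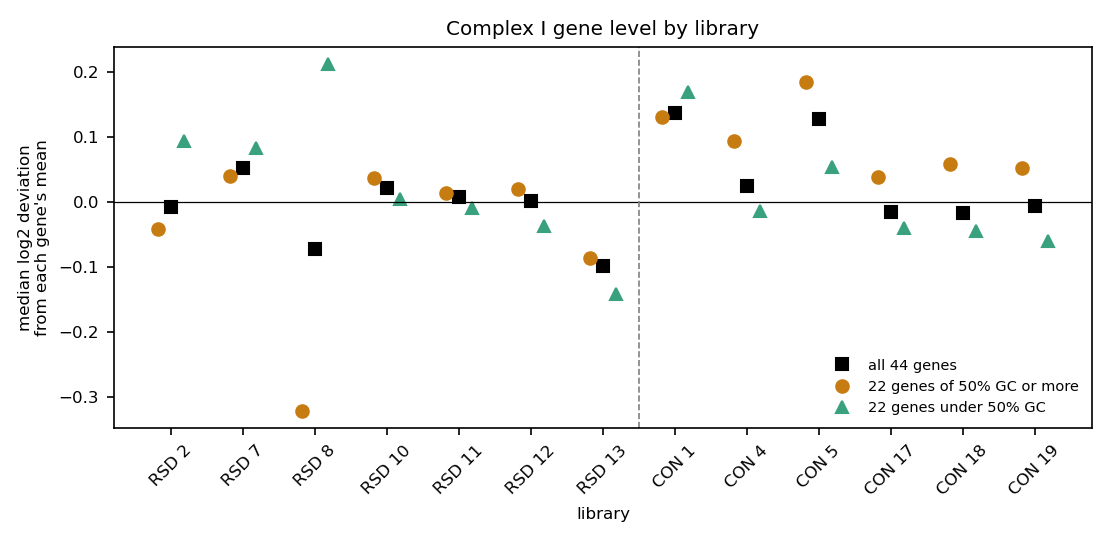
Median log2 deviation from each gene's mean, by library, for all 44 tested genes (squares), the 22 of at least 50% GC (circles) and the 22 below (triangles). In RSD 8 the circles and triangles lie at -0.32 and 0.21, and CON 1 and CON 5 have the highest squares, at 0.14 and 0.13.

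RSD 8 held both extremes, being the highest of 13 libraries for 9 members and the lowest for 13. Its deviations followed the GC content of the longest transcript: the 22 members of at least 50% GC had a median of -0.32 and the 22 below it 0.21. The Spearman correlation between deviation and GC over the 44 members was -0.68 in RSD 8, -0.38 in RSD 2 and 0.49 in CON 5. Over all genes with a GC value the same libraries were at -0.72, -0.50 and 0.34, so the members shared a pattern that the whole library had. The other 5 RSD libraries were at 0.10 to 0.46 over all genes, and the other 5 controls at -0.04 to 0.48. The genes of one library share its depth and preparation, and these correlations carry no test.

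The most negative relations to GC content were those of RSD 8 and RSD 2. In the comparison of groups the direction also differed by GC class. Whether these libraries gave that difference was not tested. Of all genes of at least 50% GC, 68.1% had a lower mean in RSD, and of those below 50% GC 31.3%. Among the members, 20 of 22 in the upper class were lower (median -0.13, against -0.06 for all genes of that class) and 12 of 22 in the lower class (median -0.01, against 0.06). Without RSD 8 the counts were 21 of 22 and 13 of 22, where all genes stood at 55.1% and 41.9%. Without CON 18 they were 20 of 22 and 13 of 22, against 73.7% and 28.5% of all genes. Without both libraries they were 22 of 22 and 15 of 22, against 62.7% and 38.3%. With the trend on GC and length removed from each library, 31 of 44 members were lower (70.5%, against 48.5% of all genes). The median was -0.06, against 0.004 for all genes. By class, 17 of 22 and 14 of 22 were lower, against 51.8% and 45.5% of all genes. Of the members 5 were under an unadjusted p of 0.05 (background 4.45%): Tmem126b higher, and Ndufc2, Ndufb2, Ndufa3 and Ndufaf3 lower.

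**Figure D5:**
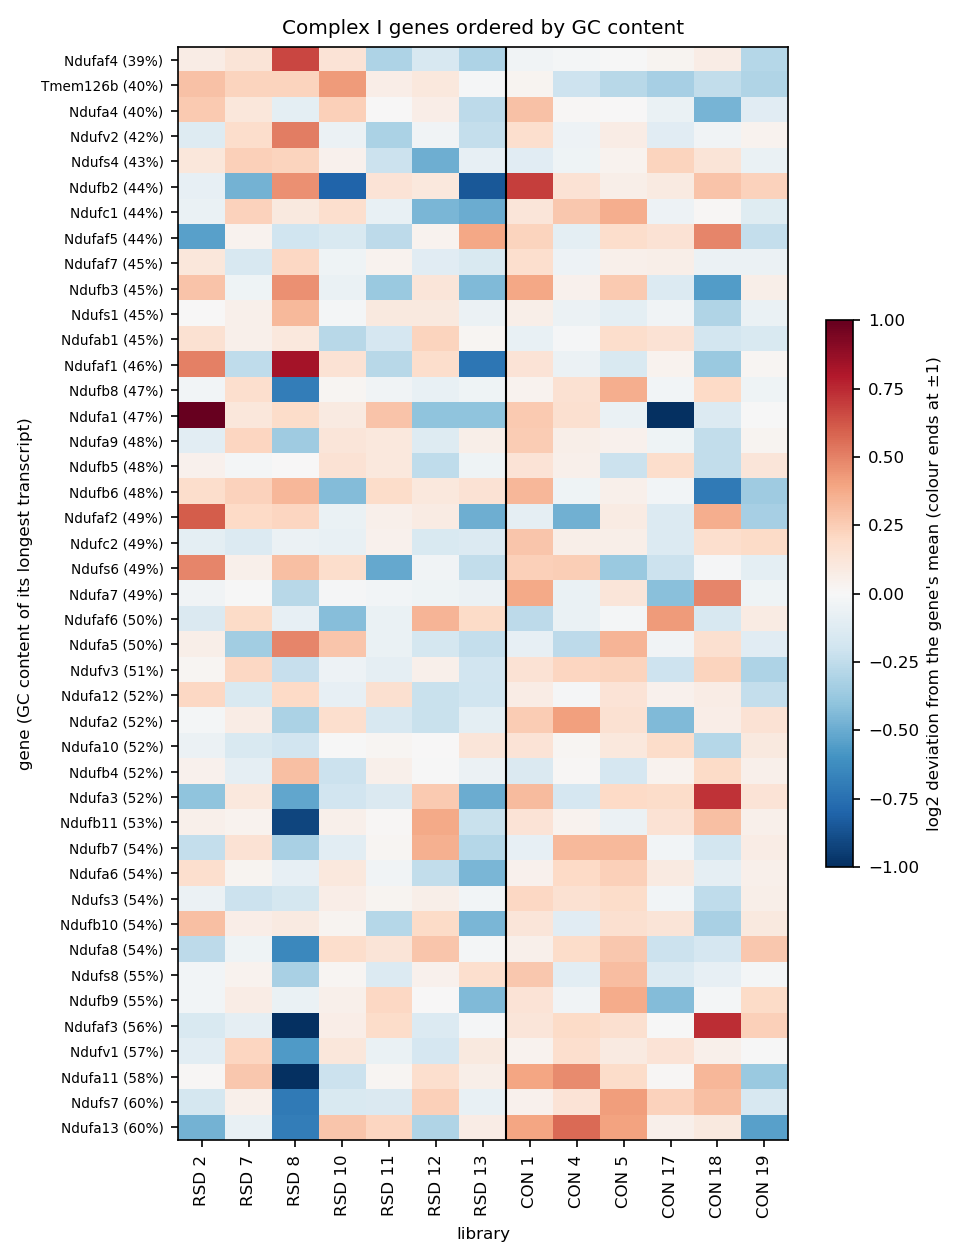
Log2 deviation from the gene's mean for the tested genes reported here (rows, from low to high GC content of the longest transcript) in the 13 libraries (columns); colours end at a deviation of 1 either way. The column of RSD 8 turns from red to blue from top to bottom, and the columns of CON 1 and CON 5 are mostly red.

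Sample numbers fall into 2 ranges that each hold both groups, 1 to 8 (RSD 2, 7 and 8; CON 1, 4 and 5) and 10 to 19 (RSD 10 to 13; CON 17 to 19), and the labels do not say what the numbers stand for. The neutrophil markers moved with these ranges: their sum was 182 to 1185 normalized reads in 1 to 8, with RSD at 778 to 1185 and CON at 182 to 736, and 11.6 to 134 in 10 to 19. Their part in the differences below was not tested. Within 1 to 8 the members' median was -0.16, and 7 were under an unadjusted p of 0.05, 1 higher (Tmem126b) and 6 lower, where the background was 22.2% of all genes (12.0% higher and 10.2% lower). Among them were Ndufa13 (-0.87 ± 0.20), Ndufs3, Ndufa8, Ndufs7 and Ndufaf3. Within 10 to 19 the median was -0.05, and Tmem126b (0.44 ± 0.17) was the only member under that p, with a background of 5.44%. Leaving RSD 8 out of the lower range moved its median to -0.08, and leaving CON 18 out of the upper range moved that to -0.03, with Tmem126b again the only member under an unadjusted 0.05 (background 9.53%).

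Ndufa13, known as GRIM-19, showed the widest gap between the ranges. In numbers 1 to 8 it was at 47.9, 55.8 and 73.9 in RSD and at 102, 104 and 116 in CON. In numbers 10 to 19 it was at 62.9 to 94.6 in RSD and 53.2 to 83.4 in CON. How many of all genes separate the groups within a range was not counted, so no weight is put on these ranges. A term for the difference between the ranges gave 1.07 ± 0.31 (limma adjusted p = 0.151). In all, 4 members were under an unadjusted 0.05 for that term, where the background was 21.7%, and 0 passed the adjusted threshold. Its exons share 375 bases with Tssk6 on the other strand, and at 60.4% it has the highest GC content of the members.

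With the groups held equal, the 2 ranges were compared with each other. Of 44 members 30 were lower in 10 to 19 (68.2%, against 51.7% of all genes), with a median of -0.08, and 5 were under an unadjusted p of 0.05 (background 12.8%), all of them lower (Ndufb3, Ndufa1, Ndufv2, Ndufc1 and Ndufb6; background 6.43% in that direction). Ndufb3, a distal membrane subunit, was at -0.43 ± 0.14 (limma adjusted p = 0.210). None passed, where 86 of 12496 genes did (0.688%). With a term for the range in the comparison of groups, the members' median was -0.06 and 5 were under an unadjusted 0.05 (background 5.87%).

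Other genes of the pathway were read from lists of textbook members. Of 8 other complex I assembly genes, 5 had a higher and 3 a lower mean (median 0.02), and 0 were under an unadjusted p of 0.05; those of smallest p were Foxred1 (-0.12 ± 0.08) and Nubpl (0.12 ± 0.11), which delivers iron-sulfur clusters. Of 38 subunits of complexes II to V, 24 were lower (63.2%, against 48.6% of all genes). Their median was -0.04, between that of the complex I subunits and that of all genes. Cox4i1, a subunit of cytochrome c oxidase, was the 1 of 38 under an unadjusted 0.05 (background 4.00%). It stood at 175 to 341 normalized reads in RSD and 246 to 434 in CON, a log2 difference of -0.35 ± 0.16 with ranges that overlapped. Uqcr10, of complex III, was at -0.35 ± 0.18. Without CON 18 and RSD 8 these were -0.21 and -0.14, and Cox4i1 was no longer under an unadjusted 0.05.

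Of 11 tested regulators of mitochondrial biogenesis, 8 had a higher and 3 a lower mean in RSD (27.3% lower, against 48.6% of all genes). The median was 0.11, against 0.01 for all genes, and counts over so few genes carry no test. Tfam, which packages and transcribes mitochondrial DNA, was the 1 gene under an unadjusted p of 0.05 (background 4.00%). It stood at 266 to 369 in RSD and 180 to 285 in CON. Its log2 difference was 0.30 ± 0.12 (limma adjusted p = 0.821), with overlapping ranges. Without CON 18 and RSD 8 it was 0.16, no longer under an unadjusted 0.05, and the list's median was 0.04 with 9 of 11 higher. Yy1, whose motif is printed above, was at 924 to 1248 and 826 to 1080, a difference of 0.15 ± 0.09. No gene of these 3 lists passed the adjusted threshold in limma, edgeR or DESeq2.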

How the data were processed

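RNA of sorted microglia was sequenced in 13 samples (7 RSD, 6 CON), from Ovation SoLo libraries with AnyDeplete removal of ribosomal RNA, per the labels' protocols. Per the submitters' processing notes the aligner was STAR, the build mm10 and the normalization that of DESeq2. Which program counted reads, and whether it used strand, is not given in the sources used here. In the deposited table each value is a signal, a gene's read count divided by a size factor. Whole reads were recovered from it: 100% of values came out whole within 0.01 reads.

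Genes kept by edgeR's filterByExpr on those reads (minimum count 10, minimum total 15) numbered 12496. RSD and CON were compared with limma (3.58.1; robust, variance trend) on log2(value + 1), two-sided, with Benjamini-Hochberg adjustment over these genes. Differences on that scale understate those of low genes. As alternatives, edgeR (4.0.16) called 0 and DESeq2 (1.42.0) 2 genes on the recovered reads, in R 4.3.3; limma-voom, other pseudocounts and filters, each library left out, number ranges and a removed GC and length trend were also run.

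Of the symbols, 13790 matched GENCODE M21 (GRCm38) and 558 a RefSeq synonym; 170 did not match. The members and all lists were chosen with earlier results of these data known. Named were members at an unadjusted p under 0.05 or with groups that did not overlap, the 2 of smallest p in each role and list, the 3 highest and 3 lowest per kb, members below the filter, and Tmem126b, Ndufa3 and Ndufc2 in any case; other members with values were chosen after these were seen. A member that this rule picks is not reported here; counts and medians include it. The labels do not say that samples came from separate animals, and p-values then cover only the spread of these libraries. Intervals cover spread or counting error as stated, and PCR copies were not separated from molecules.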

Additional observations from a re-analysis of the deposited data

Results flagged for a closer look

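The groups of values looked at were 14 named genes and the members' median deviation, each in RSD and in CON. Of these 30 groups, 8 held a library past Dixon's critical value. The measure is the library's gap to the nearest other, as a share of the group's whole range. For a single group of normal values chance gives about 1 in 20. These groups reuse the same 13 libraries, and most genes were named for small p or extreme level, so that rate does not apply to the count. Ndufs5 lies near the floor of the values. RSD 8 was the library in 4 of the 8 groups. It was low for Ndufaf3 (29.8 normalized reads against 67.4 to 85.5; a gap of 0.773 of the range), low for Ndufb8 (86.2 against 132 to 157; 0.712), high for Ndufs1 (703 against 539 to 602; 0.584) and low for Ndufs5 (0 against 4.22 to 14.3; 0.607). Ndufs1 and Ndufaf3 lay on the side that the library's GC pattern gives, while Ndufb8 (46.9% GC) lay against it. Ndufs5 (49.0% GC) lies close to the members' median of 49.4% and near the floor, so it is not placed on either side.

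CON 18 was high for Ndufaf3 (126 against 75.0 to 88.9; 0.673) and low for Ndufs5 (0 against 4.83 to 11.7; 0.694). CON 1 was high for Tmem126b (75.5 against 58.6 to 64.0; 0.654) and for Ndufb2 (60.2 against 38.4 to 45.1; 0.646). For Tmem126b this is the library that makes the groups overlap.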

How the results depend on the processing

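No member passed the adjusted threshold under any of 28 alternatives, and the lowest adjusted p of a named member was 0.175 (Ndufs3, numbers 1 to 8 without RSD 8); that of Ndufa13 there was 0.0583. The count of all genes called, 0, became 2 in DESeq2, 80 in numbers 1 to 8 without RSD 8 and 11 in numbers 10 to 19 without CON 18; with each library left out it was 0. The 5 members under an unadjusted p of 0.05 were 1 in numbers 10 to 19 with or without CON 18, 3 without CON 18 and RSD 8, and 2 to 5 with each library left out. The median of all 44 tested members, -0.07, was -0.16 in numbers 1 to 8, and -0.09 to -0.05 with each library left out. Direction was kept in 357 of 363 values of the named genes, and it turned for Ndufa4 in numbers 1 to 8 (-0.012), for Ndufb8 in numbers 10 to 19 without CON 18 (0.00443), for Ndufa2 in numbers 10 to 19 (0.0031, and 0.075 without CON 18) and for Ndufs3 there (0.10, and 0.016 without CON 18); the cause was not tested. Tmem126b ran from 0.32 to 0.46 and Ndufc2 from -0.25 to -0.11. Number ranges without RSD 8 or CON 18, and the term for the difference between ranges, were chosen after seeing the data. Leaving out each library, and CON 18 with RSD 8, was planned, but which of these values are printed was chosen after seeing them.

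No paired analysis was possible because the groups compared share no replicate numbers. Counting error was part of the spread at this depth: the chi-square per degree of freedom within groups, which counting alone would put near 1, had a median of 2.77 over the members and was under 2 for 11 of 45.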
